A study of Rattus norvegicus with 9 samples.

Results

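Matrix metalloproteinases (MMPs) and their tissue inhibitors (TIMPs) were followed across 3 kinds of cultured rat cell. The 10 genes described are Mmp2, Mmp3, Mmp9, Mmp10, Mmp11, Mmp13, Mmp14, Timp1, Timp2 and Timp3, out of 14506 genes measured. They were found as the array features that the platform's annotation ties to 1 of these symbols and no other, and all 10 were measured. The cells were of adult Sprague Dawley rats, and 9 Affymetrix Rat Gene 1.0 ST arrays gave 3 samples of each kind. Schwann cells of the sciatic nerve (nerve Schwann cells) came from enzymatically dissociated nerve; their tissue field names dermis, as it does for all 9 samples, so grouping followed the cell type label. Skin-derived precursors (SKPs), cells of dorsal trunk skin that grow as floating spheres, were collected as spheres that had been passaged 1 or 2 times. Schwann cells made from SKPs (SKP-derived Schwann cells) came from SKPs plated in Schwann cell medium. No genotype or drug treatment is given for any group. Both kinds of Schwann cell were passaged once and grown to confluence in the Schwann cell medium, so medium and growth form changed together with the cell kind. Per the labels, the SKP data are reanalysed from an earlier deposit, so batch and group cannot be told apart where SKPs are compared with the other 6 arrays. The same 3 SKP arrays serve in both comparisons with SKPs, and these 2 sets of values are therefore given side by side and not as separate evidence.

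MMPs are zinc-dependent endopeptidases that cut collagens, laminin, fibronectin and proteoglycans of the extracellular matrix. Most are secreted as inactive proenzymes, and plasmin, furin-type proteases or other MMPs remove the propeptide. TIMPs bind the active site and block it, so matrix breakdown depends on the balance of the 2 families. In skin, MMPs serve hair growth, wound closure and dermal remodelling. In peripheral nerve, gelatinases and stromelysins are known from the injury response, in which the basal lamina is remodelled and myelin is cleared. Many inducible MMP genes carry an AP-1 element, the binding motif of Fos and Jun proteins, close to a TATA box.

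Mmp13, Mmp3 and Mmp10 lie on rat chromosome 8 in a run of 10 neighbouring Mmp genes. Their upstream sequences are shown because, among the 7 MMPs of the set, these 3 differed most between SKPs and nerve Schwann cells, and the run's other genes Mmp12 and Mmp1 are shown for comparison. Each is the 150 bases before the RefSeq start in build GRCr8, written 5′ to 3′ on the gene's strand. Capitals mark the AP-1 letters TGAGTCA and the TATA letters TATAAA, each in either orientation. The Timp3 sequence, from chromosome 7, is shown beside them because Timp3 differed in the opposite direction.
Mmp13, chr8:12782679-12782828, plus strand: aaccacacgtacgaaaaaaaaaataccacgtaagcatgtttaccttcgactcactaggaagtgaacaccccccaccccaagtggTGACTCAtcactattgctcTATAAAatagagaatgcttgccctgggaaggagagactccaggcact
Mmp12, chr8:12866502-12866651, plus strand: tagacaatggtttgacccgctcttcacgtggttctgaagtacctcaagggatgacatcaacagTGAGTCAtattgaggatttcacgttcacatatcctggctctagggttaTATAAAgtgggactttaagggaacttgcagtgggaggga
Mmp3, chr8:12925117-12925266, plus strand: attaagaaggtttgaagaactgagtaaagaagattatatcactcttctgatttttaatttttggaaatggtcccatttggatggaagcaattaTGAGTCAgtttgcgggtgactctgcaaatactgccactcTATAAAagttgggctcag
Mmp1, chr8:12943303-12943452, plus strand: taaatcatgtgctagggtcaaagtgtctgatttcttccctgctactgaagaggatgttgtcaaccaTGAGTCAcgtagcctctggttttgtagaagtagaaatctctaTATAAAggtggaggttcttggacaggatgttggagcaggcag
Mmp10, chr8:12974557-12974706, plus strand: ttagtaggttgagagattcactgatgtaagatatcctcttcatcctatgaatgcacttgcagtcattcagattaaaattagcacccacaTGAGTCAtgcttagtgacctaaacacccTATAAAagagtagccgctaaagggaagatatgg
Timp3, chr7:19459559-19459708, minus strand: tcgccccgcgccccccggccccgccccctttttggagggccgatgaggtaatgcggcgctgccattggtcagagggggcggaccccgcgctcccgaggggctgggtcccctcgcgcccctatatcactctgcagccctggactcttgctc
The first AP-1 base lay 66 bases before the start in Mmp13, 87 in Mmp12, 71 in Mmp3, 84 in Mmp1 and 61 in Mmp10. In these 5 sequences the AP-1 and TATA letters did not overlap. Both strands of the 250 bases before the start were searched, and 7 of the 10 MMP and TIMP genes were listed in the promoter table. AP-1 letters were found in 3 of these 7 (Mmp3, Mmp10 and Mmp13) and in 6 of the 10 genes of the run (Mmp13, Mmp12, Mmp3, Mmp1, Mmp10 and Mmp7). They occur in 4.05% of the 33469 rat promoters of the same length. TATA letters were found in 3 of the 7 listed and in 8 of the 10 genes of the run, against 12.9% of all promoters, and 0.574% of all promoters held both. The letters searched are not in the windows of Timp1, Timp2, Timp3 and Mmp11. These matches describe letters and were not tested as binding sites.

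Values are deposited log2 expression values (robust multi-array average, RMA), on which a difference of 1 is a 2-fold change. A gene was called when its Benjamini-Hochberg adjusted p, from limma over all 14506 genes, was under 0.05. The arrays did not share 1 scale: nerve arrays had medians of 6.82 to 6.87, SKP-derived arrays 6.33 to 6.44 and SKP arrays 6.20 to 6.27, taken over every feature. The median gene accordingly differed by 0.46 for nerve Schwann cells minus SKPs and by −0.45 for SKP-derived minus nerve Schwann cells, but by −0.01 for SKP-derived Schwann cells minus SKPs. After cyclic loess scaling of the arrays these medians were −0.03, −0.02 and −0.03, and each count of called genes among the 10 and in the related lists was repeated on that scale. No detection calls were used, so where a group lay below its arrays' medians, as both kinds of Schwann cell did for Mmp10, a fold is that of the measured values and may understate the change.

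Markers fit the labelled cell kinds in direction. The 9 Schwann cell markers measured averaged 9.95 to 11.18 in the 6 Schwann cell arrays and 5.40 to 5.57 in SKPs. In both kinds of Schwann cell 9 of 9 were called higher, also after loess. Of all genes, 49.7% were called higher in nerve Schwann cells (22.4% after loess) and 19.3% in SKP-derived Schwann cells (18.6% after loess). Fibroblast and dermal mesenchyme markers, whose cells are known sources of MMPs, averaged 9.99 to 11.94 in SKP arrays, 7.81 to 9.99 in SKP-derived arrays and 8.43 to 9.56 in nerve arrays. In each comparison with SKPs, 8 of these 12 markers were called lower in the Schwann cells, also after loess. The shares of all genes called lower were 14.9% in nerve (25.6% after loess) and 22.3% in SKP-derived Schwann cells (23.9% after loess). SKP-derived array 2 was the highest of its group in mesenchymal markers (9.99) and the lowest in Schwann cell markers (9.95). Nerve array 2 was the highest of its group in mesenchymal markers (9.56), and SKP array 3 the lowest of its group (9.99). Because RNA came from whole cultures, fewer cells of a type and less RNA per cell cannot be told apart.

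All 7 MMPs were lower in nerve Schwann cells and in SKP-derived Schwann cells than in SKPs, in every array. The differences ran from −1.86 (Mmp14) to −7.33 (Mmp3) in nerve Schwann cells and from −1.61 (Mmp2) to −6.52 (Mmp10) in SKP-derived Schwann cells. Timp3 went the other way, 19.7-fold higher in nerve Schwann cells and 20.6-fold higher in SKP-derived Schwann cells. Timp1 was also called higher in both, by a smaller amount that rested on single arrays, and Timp2 was not called in either. Of the 10 genes, 9 were called in each comparison (8 after loess), against 64.6% of all genes in nerve Schwann cells (48.0% after loess) and 41.6% in SKP-derived Schwann cells (42.5% after loess). By direction, 14.9% of all genes were called lower in nerve Schwann cells (25.6% after loess) and 22.3% in SKP-derived Schwann cells (23.9% after loess). The corresponding shares called higher were 49.7% and 19.3%, or 22.4% and 18.6% after loess. Groups lay apart without overlap, with SKPs higher, for the 7 MMPs and for 17.8% (nerve) and 25.8% (SKP-derived) of all genes. They lay apart with SKPs lower for Timp1 and Timp3 and for 55.8% and 22.1% of all genes. The 7 MMPs stayed called lower in both comparisons after median centring, cyclic loess and quantile normalisation.

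**Figure D1:**
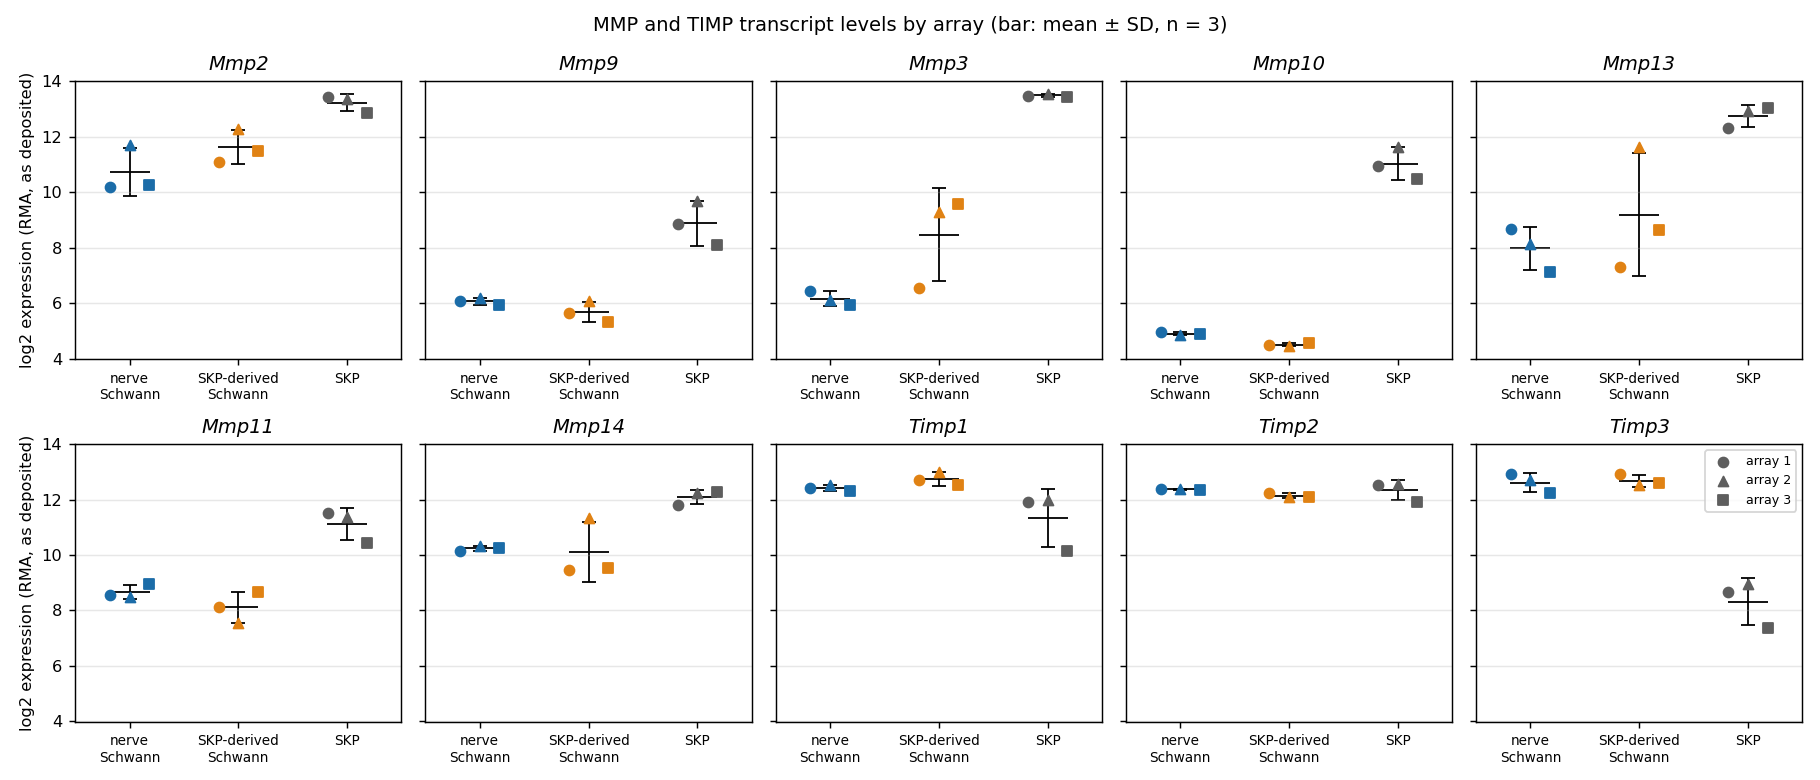
Log2 expression as deposited (vertical axis) of the 7 MMP and 3 TIMP genes in each of the 9 arrays (points; shape gives the array number), with the mean and SD of the 3 arrays of each group as bars. The SKP points lie above all Schwann cell points for the 7 MMPs and below them for Timp1 and Timp3.

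The gelatinases Mmp2 and Mmp9 cut denatured collagen and the type IV collagen of basement membranes. Mmp2 measured 10.18, 11.72 and 10.27 in nerve Schwann cells, 11.08, 12.30 and 11.50 in SKP-derived Schwann cells, and 13.44, 13.38 and 12.87 in SKPs. The SKP values were above all others, and the 2 kinds of Schwann cell overlapped. Mmp2 was lower than in SKPs by −2.51 (standard error, SE, 0.43; limma adjusted p = 0.000859) in nerve Schwann cells and by −1.61 (SE 0.43; adjusted p = 0.0149) in SKP-derived Schwann cells. The latter call was lost without SKP-derived array 1 (−1.33, adjusted p = 0.0578). Arrays 2 of both Schwann cell groups, which had the most mesenchymal marker signal, also had the most Mmp2 of their groups; the part of those cells in the Mmp2 level was not tested.

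Mmp9 measured 6.07, 6.19 and 5.94 in nerve Schwann cells, 5.63, 6.07 and 5.33 in SKP-derived Schwann cells, and 8.84, 9.70 and 8.09 in SKPs. Again the SKP arrays stood above the Schwann cell arrays, which overlapped with each other. The limma differences from SKPs were −2.81 (SE 0.35, adjusted p = 0.000173) in nerve Schwann cells and −3.20 (SE 0.35, adjusted p = 0.000121) in SKP-derived Schwann cells. Macrophages are a known source of Mmp9, and the 13 macrophage markers averaged 7.95, 6.36 and 5.59 in SKP arrays 1, 2 and 3. They averaged 5.98 to 6.09 in nerve arrays, above SKP array 3, and 5.24 to 5.51 in SKP-derived arrays. The part of macrophages in the Mmp9 level was not tested.

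The stromelysins Mmp3 and Mmp10 have broad substrates, among them proteoglycans, laminin and fibronectin, and both can activate collagenase proenzymes. Mmp3 measured 6.45, 6.12 and 5.93 in nerve Schwann cells, 6.55, 9.28 and 9.59 in SKP-derived Schwann cells, and 13.49, 13.56 and 13.44 in SKPs. The 3 groups did not overlap, and the SKP-derived arrays were spread from 6.55 to 9.59, with array 1 just above the nerve arrays. Mmp3 was 161-fold lower in nerve Schwann cells (−7.33, SE 0.65, limma adjusted p = 2.96e-05) and 32.5-fold lower in SKP-derived Schwann cells (−5.02, SE 0.65, adjusted p = 0.000283) than in SKPs. Without SKP-derived array 1 the latter difference was −4.06 (adjusted p = 1.08e-05). Its promoter is one of those shown above with an AP-1 match close to a TATA match.

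Mmp10 measured 4.96, 4.84 and 4.89 in nerve Schwann cells, 4.50, 4.44 and 4.57 in SKP-derived Schwann cells, and 10.96, 11.65 and 10.47 in SKPs. Both kinds of Schwann cell were tightly grouped and far below SKPs. The difference was 69.9-fold in nerve Schwann cells (−6.13, SE 0.25, limma adjusted p = 6.78e-07) and 92.0-fold in SKP-derived Schwann cells (−6.52, SE 0.25, adjusted p = 6.13e-07).

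Mmp13, collagenase-3, cuts fibrillar collagens. It measured 8.66, 8.13 and 7.14 in nerve Schwann cells, 7.30, 11.63 and 8.64 in SKP-derived Schwann cells, and 12.31, 12.93 and 13.05 in SKPs. SKP-derived array 2 was the highest of the Schwann cell arrays and came close to the lowest SKP array, without overlap. Mmp13 was 27.6-fold lower in nerve Schwann cells (−4.78, SE 0.90, limma adjusted p = 0.00139) and 11.9-fold lower in SKP-derived Schwann cells (−3.58, SE 0.90, adjusted p = 0.011) than in SKPs. Without SKP-derived array 2, the latter difference was −4.80 (adjusted p = 0.000201), and without SKP-derived array 1 it was −2.63 (adjusted p = 0.0318).

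Mmp11, stromelysin-3, is activated by furin inside the cell and is known from stromal cells. It measured 8.54, 8.48 and 8.96 in nerve Schwann cells, 8.12, 7.55 and 8.67 in SKP-derived Schwann cells, and 11.50, 11.38 and 10.45 in SKPs. SKPs were above all Schwann cell arrays, which overlapped with each other. The limma differences from SKPs were −2.45 (SE 0.34, adjusted p = 0.00026) in nerve Schwann cells and −2.99 (SE 0.34, adjusted p = 0.000129) in SKP-derived Schwann cells. Mmp11 was lowest in SKP-derived array 2, in contrast to Mmp13 and Mmp14.

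Mmp14 is the membrane-type enzyme MT1-MMP, which cuts collagen at the cell surface and, with Timp2, activates the Mmp2 proenzyme. It measured 10.16, 10.34 and 10.24 in nerve Schwann cells, 9.46, 11.34 and 9.52 in SKP-derived Schwann cells, and 11.80, 12.23 and 12.26 in SKPs. SKPs were highest without overlap, and SKP-derived array 2 stood well above the other 2 arrays of its group. Mmp14 was lower than in SKPs by −1.86 (SE 0.43, limma adjusted p = 0.0041) in nerve Schwann cells and by −2.0 (SE 0.43, adjusted p = 0.00489) in SKP-derived Schwann cells. Without SKP-derived array 2 the latter was −2.61. That array was high in Mmp13, Mmp14, Mmp2 and mesenchymal markers together. Nerve array 2, the highest of its group in these markers, was highest in Mmp2 and Mmp14 but not in Mmp13 (8.13, against 8.66 in array 1). SKP array 3, the lowest of its group in these markers, was lowest in Mmp2 (12.87) and highest in Mmp13 (13.05) and Mmp14 (12.26). The part of mesenchymal cells in these levels was not tested.

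Timp3 is bound to the extracellular matrix and inhibits ADAM and ADAMTS proteases besides MMPs. It measured 12.91, 12.69 and 12.25 in nerve Schwann cells, 12.91, 12.53 and 12.59 in SKP-derived Schwann cells, and 8.65, 8.94 and 7.36 in SKPs. The 2 kinds of Schwann cell overlapped and both lay far above SKPs. The limma differences from SKPs were 4.30 (SE 0.36, adjusted p = 2.46e-05) in nerve Schwann cells and 4.36 (SE 0.36, adjusted p = 2.56e-05) in SKP-derived Schwann cells.

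Timp1 is a secreted inhibitor that cytokines and growth factors induce. It measured 12.43, 12.51 and 12.31 in nerve Schwann cells, 12.70, 13.00 and 12.51 in SKP-derived Schwann cells, and 11.90, 12.0 and 10.14 in SKPs. SKPs lay below both kinds of Schwann cell, and SKP array 3 lay far below the other 2. Timp1 was higher than in SKPs by 1.07 (SE 0.42, limma adjusted p = 0.0484) in nerve Schwann cells and by 1.39 (SE 0.42, adjusted p = 0.0255) in SKP-derived Schwann cells. After loess neither was called (0.88, adjusted p = 0.143, and 1.17, adjusted p = 0.0676). Without SKP array 3 the differences were 0.46 (adjusted p = 0.0387) and 0.78 (adjusted p = 0.00606). The nerve call was lost without any 1 of the 6 Schwann cell arrays (adjusted p up to 0.11), and the SKP-derived call without SKP-derived array 1 (0.0604) or array 2 (0.0748).

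Timp2 inhibits most MMPs and also bridges Mmp14 and the Mmp2 proenzyme at the cell surface. It measured 12.38, 12.37 and 12.36 in nerve Schwann cells, 12.24, 12.10 and 12.09 in SKP-derived Schwann cells, and 12.52, 12.57 and 11.92 in SKPs. SKPs spanned both kinds of Schwann cell. The differences from SKPs were 0.03 (95% interval −0.36 to 0.43, limma adjusted p = 0.876) in nerve Schwann cells and −0.19 (95% interval −0.59 to 0.20, adjusted p = 0.412) in SKP-derived Schwann cells. With median centring Timp2 was called lower in nerve Schwann cells (−0.57, adjusted p = 0.0195), and without SKP array 3 it was called lower in SKP-derived Schwann cells (−0.40, adjusted p = 0.0327).

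**Figure D2:**
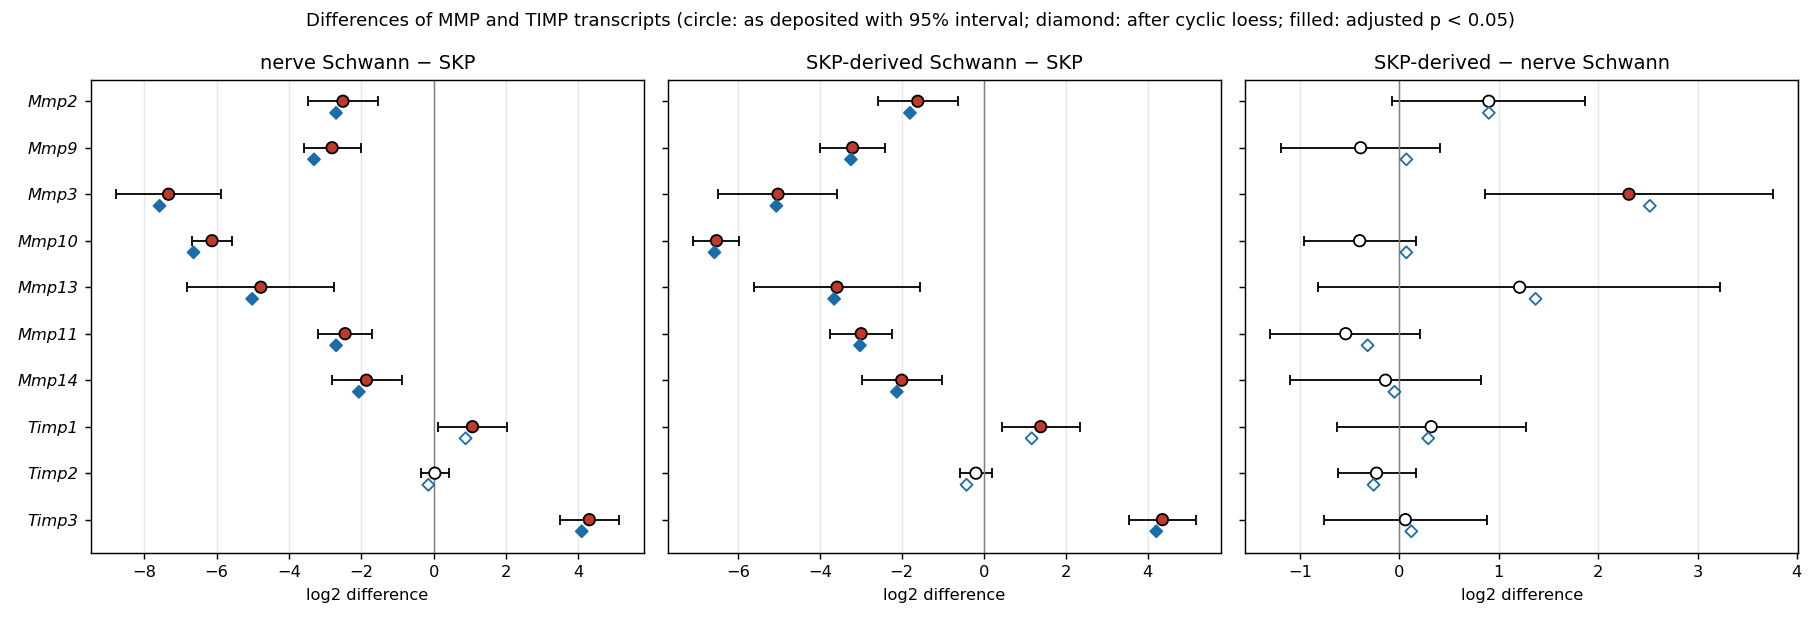
Log2 differences (horizontal axis) of the 10 genes in the 3 comparisons, as deposited (circles, 95% interval) and after cyclic loess (diamonds), filled where the limma adjusted p was under 0.05. In both comparisons with SKPs the 7 MMPs lie left of 0 and Timp3 lies right of 0, and only Mmp3 is filled, as deposited, between the 2 kinds of Schwann cell.

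Between SKP-derived and nerve Schwann cells, Mmp3 was the 1 gene of the 10 that was called. It was 2.31 higher in SKP-derived Schwann cells (SE 0.65, 95% interval 0.86 to 3.76, limma adjusted p = 0.0193), or 4.96-fold. Of all genes, 43.7% were called in this comparison, 1.33% higher and 42.3% lower; after loess the shares were 1.33%, 0.731% and 0.600%. After loess the Mmp3 difference was 2.52 with an adjusted p of 0.089, and 0 of the 10 genes were called by limma, 1 of them at an unadjusted p under 0.05. Without SKP-derived array 1 the difference as deposited was 3.27 (adjusted p = 0.000941). The call was lost without nerve array 2 (adjusted p = 0.0558) or array 3 (0.0604), and without SKP-derived array 2 (1.91, adjusted p = 0.0616) or array 3 (1.75, adjusted p = 0.0617). Mmp3 was high in SKP-derived arrays 2 and 3, which also had more mesenchymal marker signal (9.99 and 8.90) than array 1 (7.81). Nerve arrays, at 8.43 to 9.56 in these markers, had Mmp3 values of 5.93 to 6.45. The part of mesenchymal cells was not tested.

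The other 9 genes were not called between the 2 kinds of Schwann cell, and their intervals bound the difference to differing degrees. For Mmp2 the difference was 0.90 (95% interval −0.07 to 1.87), and it was called without nerve array 2 (1.40, limma adjusted p = 0.0243). For Mmp13 it was 1.21 (95% interval −0.82 to 3.23) with −0.01 without SKP-derived array 2 and 2.15 without SKP-derived array 1. For Mmp14 it was −0.14 (95% interval −1.10 to 0.82), and −0.75 and called (adjusted p = 0.0106) without SKP-derived array 2. Mmp9 (−0.39), Mmp10 (−0.40) and Mmp11 (−0.54) had negative values close to that of the median gene (−0.45), and after loess they were 0.07, 0.07 and −0.32. Timp1 differed by 0.32 (95% interval −0.63 to 1.27), Timp2 by −0.23 (−0.62 to 0.17) and Timp3 by 0.06 (−0.76 to 0.88). Mmp10 and Timp2 were lower in SKP-derived than in nerve Schwann cells without overlap, as were 59.1% of all genes, and Mmp3 was higher without overlap, as were 3.19%.

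The run of Mmp genes around Mmp3, Mmp10 and Mmp13 lies between Dcun1d5 and LOC102556477 in the RefSeq gene order. From one end it holds Mmp13, Mmp12, Mmp1b, Mmp3, Mmp1, Mmp10, Mmp8, Mmp27, Mmp20 and Mmp7, of which Mmp1b was not measured here. Of the 9 measured genes, 6 were called lower in both kinds of Schwann cell than in SKPs, as deposited and after loess. Of all genes, 14.9% were called lower in nerve Schwann cells (25.6% after loess) and 22.3% in SKP-derived Schwann cells (23.9% after loess). Mmp12, macrophage elastase, measured 5.32, 5.08 and 5.24 in nerve Schwann cells, 4.92, 6.10 and 4.44 in SKP-derived Schwann cells, and 10.08, 10.01 and 9.54 in SKPs. Its differences from SKPs were −4.66 (limma adjusted p = 1.52e-05) in nerve Schwann cells and −4.73 (adjusted p = 1.48e-05) in SKP-derived Schwann cells. The macrophage markers averaged 7.95, 6.36 and 5.59 in the same SKP arrays, 5.98 to 6.09 in nerve arrays and 5.24 to 5.51 in SKP-derived arrays. The part of macrophages in the Mmp12 level was not tested.

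Mmp1, interstitial collagenase, measured 4.09, 4.25 and 4.31 in nerve Schwann cells, 3.63, 3.32 and 4.07 in SKP-derived Schwann cells, and 6.27, 6.86 and 6.06 in SKPs. It was lower than in SKPs by −2.18 (limma adjusted p = 8.97e-05) in nerve and −2.72 (adjusted p = 3.48e-05) in SKP-derived Schwann cells. Mmp27 was lower by −0.75 (adjusted p = 0.0306) and −1.26 (adjusted p = 0.00436). At the far end of the run, Mmp8, neutrophil collagenase, Mmp20, the enamel protease, and Mmp7, matrilysin, differed by 0.76, 0.52 and 0.62 in nerve Schwann cells, near the median gene, and were called higher as deposited. After loess these were 0.06, −0.22 and −0.03 and were not called. The larger differences lay at the end of the run that holds Mmp13 to Mmp10. Of the 6 AP-1 matches of the run, 5 were found at that end. The other was in Mmp7, at the far end, whose window also held TATA letters. After loess Mmp7 differed from SKPs by −0.03 in nerve and −0.23 in SKP-derived Schwann cells and was not called. The relation of these letters to the differences was not tested.

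**Figure D3:**
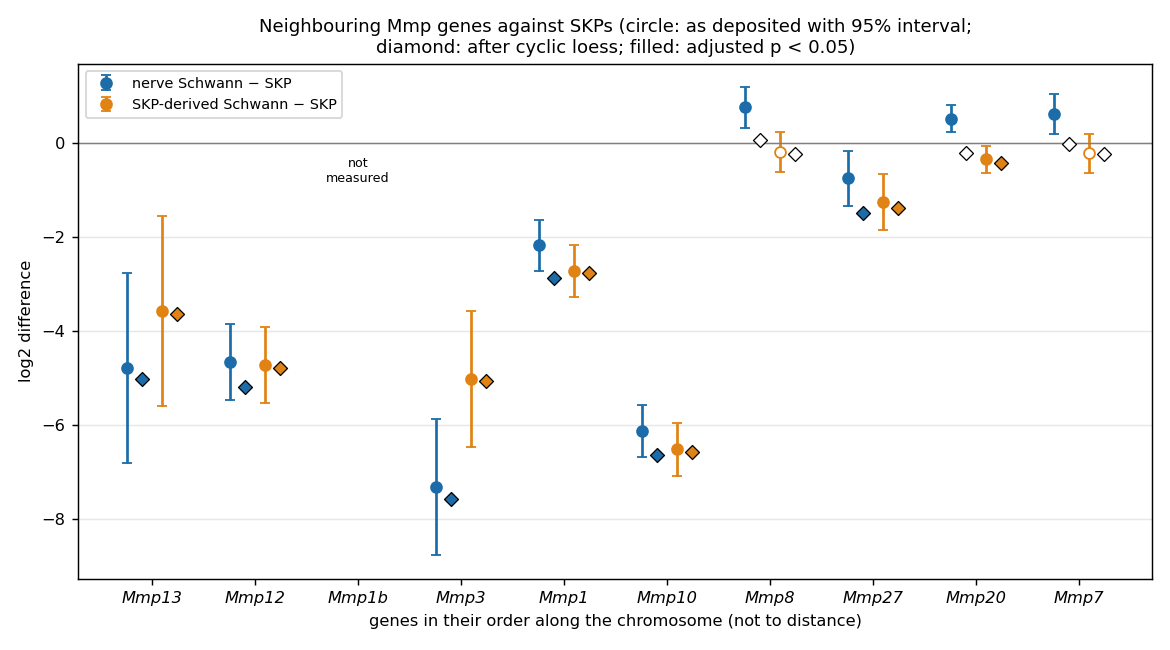
Log2 differences from SKPs (vertical axis) of the 10 neighbouring Mmp genes, in their order along the chromosome and not to distance, for nerve Schwann cells (blue) and SKP-derived Schwann cells (orange). Circles are as deposited with 95% intervals, diamonds are after cyclic loess, and filled symbols have a limma adjusted p under 0.05; as deposited, Mmp13, Mmp12, Mmp3, Mmp1 and Mmp10 lie between −2.18 and −7.33, and Mmp8, Mmp20 and Mmp7 between −0.35 and 0.76.

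**Figure D4:**
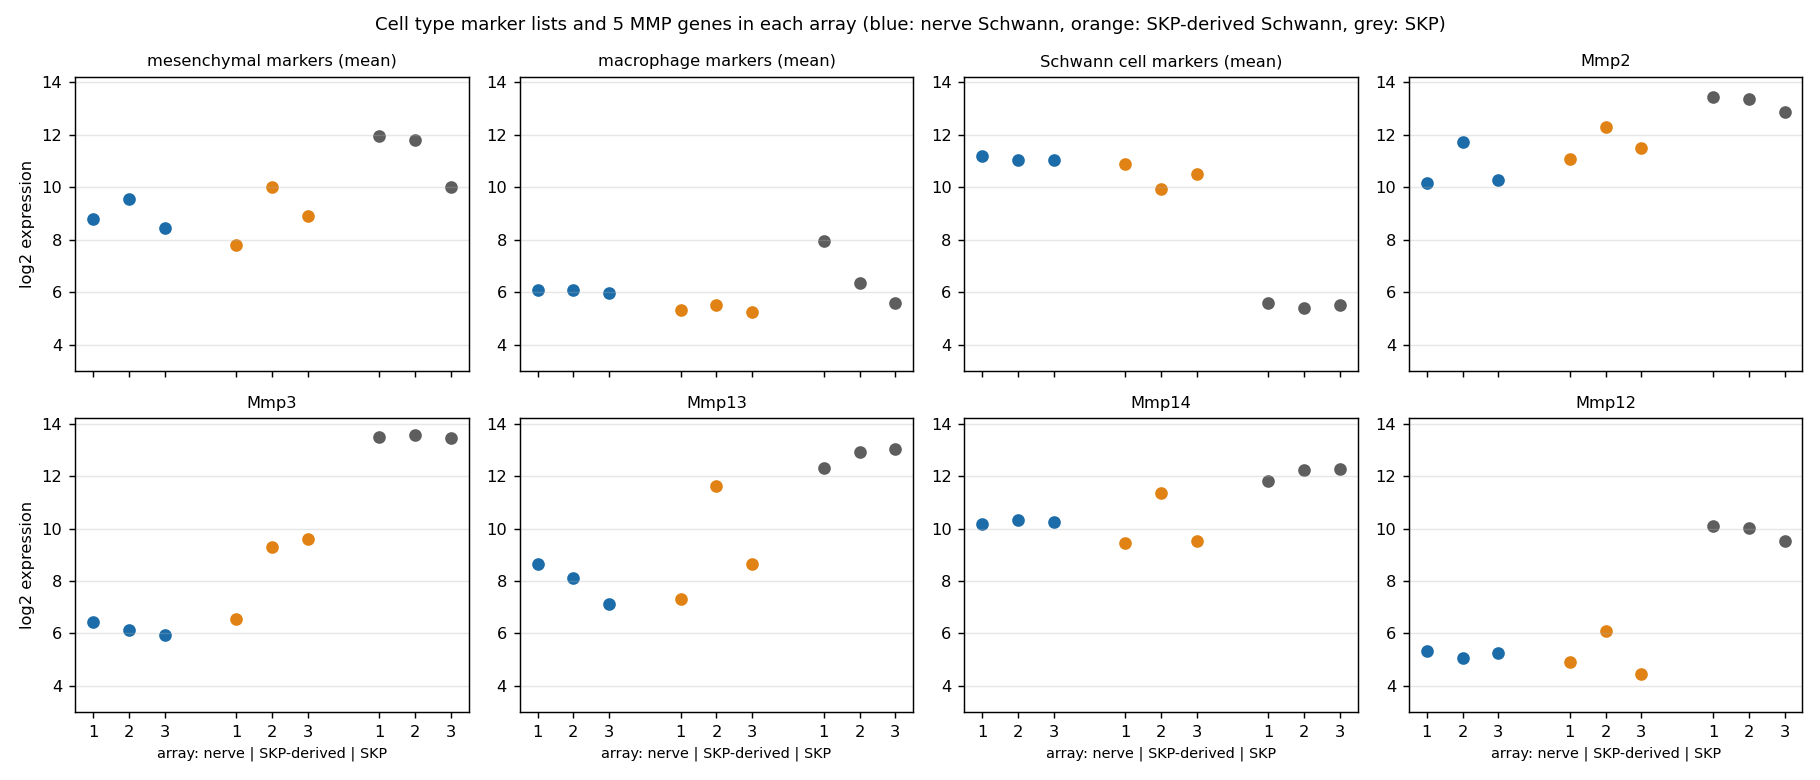
Mean log2 expression of 3 cell type marker lists and log2 expression of 5 MMP genes (vertical axis) in each array (horizontal axis, numbered within group). SKP-derived array 2 is the highest of its group in mesenchymal markers (9.99), Mmp2 (12.30), Mmp13 (11.63), Mmp14 (11.34) and Mmp12 (6.10), and SKP array 1 is the highest in macrophage markers (7.95).

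The rest of the family did not move as one. Against SKPs, the 15 other MMP and TIMP genes measured gave 9 calls upward and 4 downward in nerve Schwann cells (3 and 4 after loess), and 1 higher and 5 lower in SKP-derived Schwann cells. Upward calls made up 49.7% of all genes in the nerve comparison and downward calls 14.9% (22.4% and 25.6% after loess). In the SKP-derived comparison these shares were 19.3% and 22.3% (18.6% and 23.9% after loess). After loess the nerve counts of the 15 genes thus lay near the shares of all genes. The median differences of the 15 genes were 0.62 and −0.19, against −2.48 and −2.49 for the 10 genes. For all genes they were 0.46 and −0.01. Mmp15, the membrane-type enzyme MT2-MMP, measured 11.93, 12.06 and 12.12 in nerve Schwann cells, 11.94, 11.42 and 11.96 in SKP-derived Schwann cells, and 6.48, 6.41 and 6.41 in SKPs. It was far above SKPs in all Schwann cell arrays, by 5.60 (limma adjusted p = 7.29e-08) and 5.34 (adjusted p = 1.36e-07), the reverse of the membrane-type enzyme Mmp14. Mmp16, MT3-MMP, was lower in nerve Schwann cells (−2.46, adjusted p = 0.00212) and was not called in SKP-derived Schwann cells (−1.15, adjusted p = 0.0934). It was called there without SKP-derived array 2 (−1.69, adjusted p = 0.0139) or SKP array 3 (−1.54, adjusted p = 0.0371).

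Genes of MMP activation, inhibition and uptake, a list that mixes activators and inhibitors, were mostly lower or not called. Of 16 measured, 6 were lower, 1 (A2m) was higher and 9 were not called in nerve Schwann cells. After loess 10 were lower and 6 not called. In SKP-derived Schwann cells 7 were lower and 9 not called, also after loess. Of all genes, 14.9% were lower in nerve Schwann cells (25.6% after loess) and 22.3% in SKP-derived Schwann cells (23.9% after loess). Pcolce, which enhances procollagen processing and resembles TIMPs in 1 domain, differed by −3.27 (limma adjusted p = 1.74e-05) and −2.94 (adjusted p = 3.42e-05). Lrp1, the endocytic receptor that clears MMPs and protease complexes, differed by −2.06 (adjusted p = 3.54e-05) and −2.26 (adjusted p = 2.53e-05). Furin, the convertase that activates Mmp11 and Mmp14, differed by −0.81 (adjusted p = 0.00738) and −1.52 (adjusted p = 0.000406). Reck, a membrane-anchored MMP inhibitor, differed by −0.70 in nerve Schwann cells (adjusted p = 0.0706; 0.0362 after loess) and by −1.20 in SKP-derived Schwann cells (adjusted p = 0.0124).

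Plasmin activates several MMP proenzymes, and 12 genes of the plasminogen system were measured. In nerve Schwann cells 5 were lower and 3 higher than in SKPs (5 and 1 after loess), and in SKP-derived Schwann cells 7 were lower and 1 higher. Of all genes, 14.9% were lower and 49.7% higher in nerve Schwann cells (25.6% and 22.4% after loess). The shares of all genes in SKP-derived Schwann cells were 22.3% and 19.3%. Plau, the urokinase activator that makes plasmin, differed by −2.40 (limma adjusted p = 0.00368) and −2.86 (adjusted p = 0.0025), or −3.19 and −3.65 without SKP array 3. Some of the serpins listed were lower with it. Serpine2, an inhibitor of thrombin and plasminogen activators, differed by −3.36 (adjusted p = 0.00102) and −2.45 (adjusted p = 0.0093). Serpini1, neuroserpin, differed by −2.43 (adjusted p = 0.00033) and −2.97 (adjusted p = 0.00017). Serpinf1, a secreted serpin without known protease inhibition, was lower by −5.05 (adjusted p = 0.00206) and −3.31 (adjusted p = 0.0275). The latter call was lost without SKP-derived array 1 (−2.18, adjusted p = 0.079), SKP-derived array 3, SKP array 1 or SKP array 2. Without SKP-derived array 2, Serpinf1 and Serpine2 in SKP-derived Schwann cells were −4.47 and −3.25, and without SKP-derived array 3 Serpine2 was −1.74. The serpins Serpinb2 (0.33 and −0.07) and Serpinf2 (0.32 and −0.23) were not called in either comparison. Plg, which encodes plasminogen, was called higher in both (1.62, limma adjusted p = 0.000197, and 1.42, adjusted p = 0.000622).

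The ADAM and ADAMTS proteases, many of them targets of Timp3, went in both directions. Of 15 measured, nerve Schwann cells had 7 higher and 3 lower than SKPs (4 and 3 after loess), and SKP-derived Schwann cells 4 higher and 4 lower. In nerve Schwann cells these shares were near those of all genes, of which 49.7% were higher and 14.9% lower (22.4% and 25.6% after loess). The shares of all genes in SKP-derived Schwann cells were 19.3% and 22.3%. Adam23, a cell adhesion protein without protease activity, was higher by 4.55 (limma adjusted p = 9.53e-06) and 3.95 (adjusted p = 2.19e-05). Adamts3, a procollagen N-propeptidase, was higher by 3.31 (adjusted p = 3.47e-05) and 2.99 (adjusted p = 7.16e-05). The proteoglycan-cutting enzymes Adamts9 and Adamts4 were higher by 2.17 (adjusted p = 0.0001) and 1.81 (adjusted p = 0.000231) in nerve Schwann cells and by 1.78 (adjusted p = 0.000428) and 1.10 (adjusted p = 0.0057) in SKP-derived Schwann cells.

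Transcription factors known to regulate MMP genes, namely AP-1, ETS and NF-kB family factors together with Runx2, also went in both directions. Of 15 measured, nerve Schwann cells had 7 higher and 3 lower (5 and 3 after loess), and SKP-derived Schwann cells 4 higher and 5 lower. As deposited, the shares in nerve Schwann cells were near those of all genes, of which 49.7% were higher and 14.9% lower (22.4% and 25.6% after loess). The shares of all genes in SKP-derived Schwann cells were 19.3% and 22.3% (18.6% and 23.9% after loess). Fos, a subunit of AP-1, was higher by 3.12 (limma adjusted p = 1.03e-05) and 3.39 (adjusted p = 7.57e-06), and the stress-induced factor Atf3 by 4.13 (adjusted p = 5.18e-05) and 3.05 (adjusted p = 0.000374). The other Fos and Jun genes were mixed. Jun was called higher in both (1.78 and 1.22), Junb lower in both (−1.07 and −0.81) and Jund in neither. Fosl1 was called higher in nerve Schwann cells only (0.89, not after loess), and Fosl2 lower in SKP-derived Schwann cells only (−1.11). Rela, the NF-kB subunit p65, was higher by 1.97 (adjusted p = 1.54e-05) and 1.47 (adjusted p = 8.15e-05), and Ets2 was lower by −1.55 (adjusted p = 0.000552) and −2.14 (adjusted p = 0.000152).

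A list of 16 cytokines, growth factors and receptors known to regulate MMP genes was also measured. Nerve Schwann cells had 9 higher and 1 lower (5 and 1 after loess), against 49.7% and 14.9% of all genes (22.4% and 25.6% after loess). In SKP-derived Schwann cells 2 were higher and 1 lower (1 and 2 after loess), and 13 were not called. There, 19.3% of all genes were higher and 22.3% lower (18.6% and 23.9% after loess). Hbegf, a ligand of the EGF receptor, was higher by 2.71 (limma adjusted p = 0.000134) and 2.90 (adjusted p = 0.00013). Tgfb1, which is known to induce Timp1 and collagens, was lower by −0.94 (adjusted p = 0.00829) and −1.84 (adjusted p = 0.000379). Lif, an injury-induced cytokine, was higher in nerve Schwann cells by 1.65 (adjusted p = 0.00137) and not called in SKP-derived Schwann cells (0.75, adjusted p = 0.0796). Tnfrsf1a, the main TNF receptor, was likewise higher by 1.22 (adjusted p = 0.000582) and not called (0.24, adjusted p = 0.342).

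**Figure D5:**
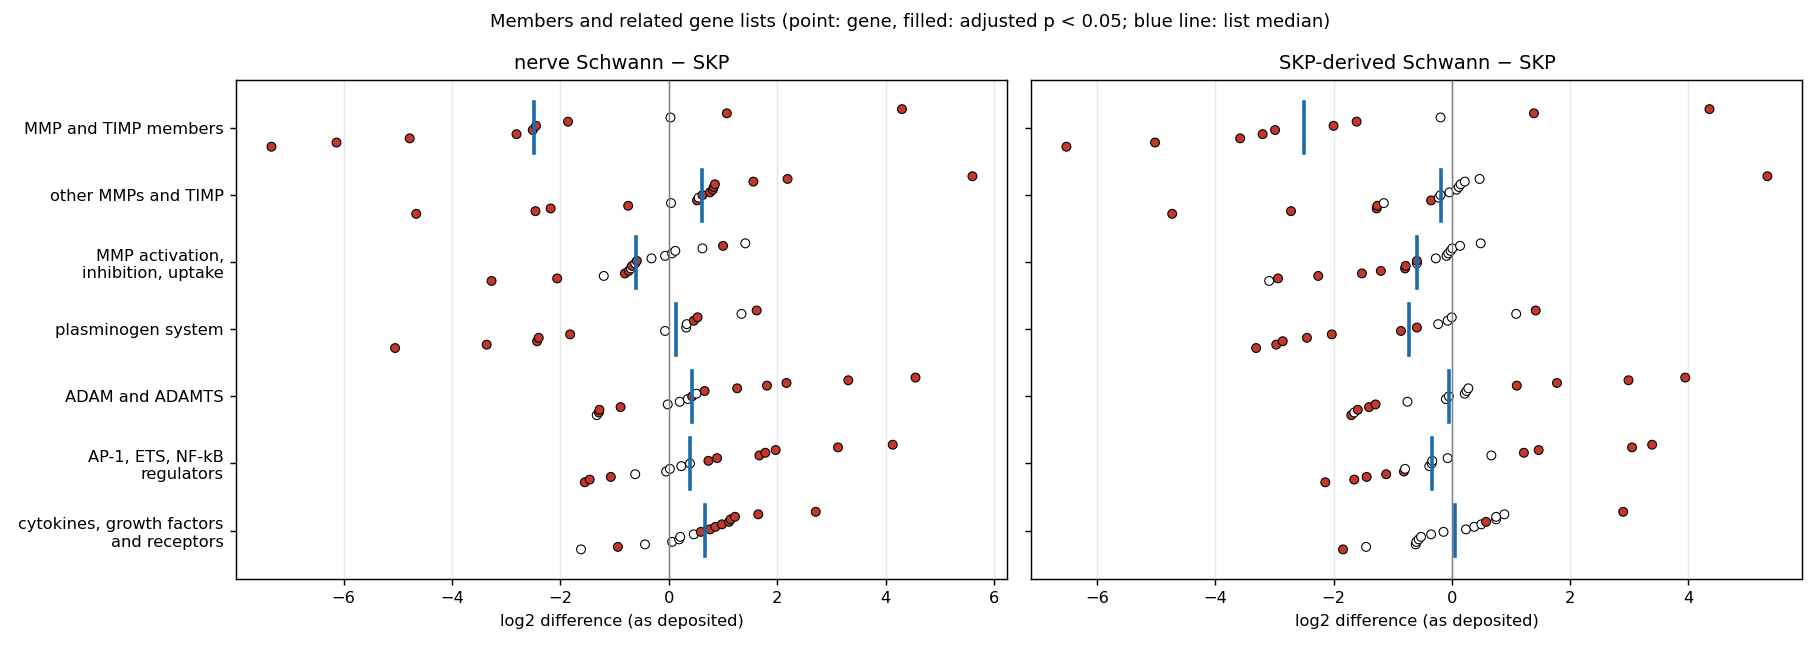
Log2 difference from SKPs as deposited (horizontal axis) of each gene of the 10 MMP and TIMP genes and of 6 related lists, for nerve Schwann cells and SKP-derived Schwann cells. Points are genes, filled where the limma adjusted p was under 0.05, and the blue line is the list's median; the MMP and TIMP medians are −2.48 and −2.49, and no related list has a median below −0.72.

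The genes whose levels were most like those of each MMP or TIMP over the 9 arrays were found by Pearson correlation, as a description, since the arrays fall into their groups and much of each correlation is that difference. Timp3 was most like Pmp22, a peripheral myelin protein (r = 0.997), and Shroom2 (r = 0.997). Mmp10 was most like the water channel Aqp1 (r = 0.997) and Zfp423 (r = 0.996), and Mmp3 was most like Pmpca (r = 0.991) and Lmo7 (r = 0.988). Mmp9 was most like Rbms2 (r = 0.997) and the lipoprotein Apoe (r = 0.994), and Mmp11 was most like Kif1c (r = 0.993) and Ogfr (r = 0.992). Mmp14 was most like Fxyd5 (r = 0.988) and Pdp2 (r = 0.980), and Mmp13 was most like Gga2 (r = 0.980) and Arhgdib (r = 0.978). Mmp2 was most like Serpinf1 (r = 0.970), of the plasminogen system list, and Ccng1 (r = 0.953). The values were lowest for Timp1, with Gask1b (r = 0.958) and Kremen1 (r = 0.951), and for Timp2, with Sash3 (r = 0.965) and Sapcd1 (r = 0.948).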

How the data were processed

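RNA of 9 cultured samples was measured on Affymetrix Rat Gene 1.0 ST arrays. The authors deposited log2 expression; the submitters' processing notes name RMA and Affymetrix Expression Console. Software versions, the genome build and whether all arrays were normalised jointly: not given in the sources used here. Of 29214 features, 15310 had 1 platform gene symbol, 323 several and 13581 none; the feature with the highest mean was kept per gene, leaving 14506 genes. No detection calls were used, so no gene was called absent; precision is limited by the number of arrays. All 9 arrays entered 1 limma fit (lmFit and eBayes, limma 3.58.1, R 4.3.3), checked on simulated data, with Benjamini-Hochberg adjustment over all genes. The labels call the samples of each kind independent and do not tie them to single animals, so p-values measure the spread between these samples. The genes, lists and markers were chosen with earlier results of these data known. Named genes are the 10, up to 4 called genes of each related list with the largest difference from SKPs, 2 nearest genes per gene, and the neighbouring Mmp genes. Some further genes of the related lists are named beside these. Promoters are from RefSeq, build GRCr8. Of the marker lists, those of endothelial cells, keratinocytes, melanocytes, smooth muscle, mast cells and neutrophils, and perineurial cells averaged from 4.42 to 8.97 across arrays.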

Additional observations from a re-analysis of the deposited data

How the results depend on the processing

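Of 654 differences of the 10 genes under alternative settings, 614 kept direction and side of the threshold, 31 lost the call, 8 gained one and 1 reversed: Timp2 in nerve Schwann cells minus SKPs was −0.57 with median centring (limma adjusted p = 0.0195). Calls lost or gained involved Mmp2, Mmp3, Mmp10, Mmp13, Mmp14, Timp1 and Timp2. The count of the 10 genes called in SKP-derived minus nerve Schwann cells (1 as reported) was 0 after cyclic loess, quantile normalisation, the filter at the median level or a threshold of 0.01 (by limma, 1 at an unadjusted p under 0.05 in each), and 2 in a fit of the 2 groups alone. It ranged from 0 to 1 when 1 array was left out. The count was 0 without nerve array 3 or SKP-derived array 3 (1 and 2 at an unadjusted p under 0.05). The gene called was not always Mmp3. Without nerve array 2 it was Mmp2 (1.40), and without SKP-derived array 2 it was Mmp14 (−0.75). With array weights 1 MMP was called lower and 0 higher. With the replicate block, which adds Mmp2 (limma adjusted p = 0.0423), the count was 2, and the block changed no other call of the 10 genes. In their deviations from group means, same-numbered arrays of different groups correlated by −0.124 to 0.289. Different-numbered arrays correlated by −0.265 to 0.18. These values cannot settle whether the numbers pair samples.

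Of 14506 genes, 9369 were called in nerve Schwann cells minus SKPs, against 4203 of the 7253 above the median level. Of 29214 features 18792 were called, and of the 14506 genes 4174 with a 2-fold minimum. In SKP-derived Schwann cells minus SKPs, 6038 genes were called, against 11640 of the 29214 features, 2980 genes with a 2-fold minimum and 3855 genes at 0.01. In SKP-derived minus nerve Schwann cells, 6333 genes were called, against 716 with median centring, 193 with loess and 240 with quantile normalisation. There were 600 calls among the 7253 genes above the median level and 13090 among the 29214 features. With a 2-fold minimum 807 genes were called, and at 0.01 there were 2818. Leaving out 1 array gave 3755 (nerve array 2) to 7270 (SKP array 3), with 3982 and 4005 without nerve arrays 1 and 3. The share of calls that were higher moved from 77.0% to 46.6% after loess in nerve Schwann cells minus SKPs, and from 3.05% to 54.9% in SKP-derived minus nerve Schwann cells.

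Other named genes reversed as follows. Sash3 in nerve Schwann cells minus SKPs was −0.56, −0.69 and −0.68 with median centring, loess and quantile normalisation, and Mmp20 was −0.08, −0.22 and −0.22. Mmp7 was −0.03 with loess and −0.09 with quantile normalisation. Fxyd5 in SKP-derived minus nerve Schwann cells (0.19 as reported) ranged from −0.75, without SKP-derived array 2 (adjusted p = 0.00693), to 0.72, without SKP-derived array 3. It was also −0.75 without SKP-derived array 2 and SKP array 3 together, an alternative chosen after seeing the data. The cause was not tested for any of these. Mmp27 in nerve Schwann cells and Mmp20 in SKP-derived Schwann cells lost their calls in 5 and 8 of the fits that left out 1 array.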
